A study of Solanum lycopersicum x Solanum pennellii and Solanum lycopersicum with 7 samples.

Results

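Chromosome 11 of the tomato cultivar M82 was described through 879 homozygous single-nucleotide variants (SNVs), positions where the leaf RNA of M82 was called homozygous for another base than that of the reference genome. They were the records on chromosome 11 with a variant quality score of at least 30, a depth of at least 10 reads, no insertion or deletion and a genotype of 1/1. They made up 11.9% of the 7356 homozygous SNVs that passed these limits over all chromosomes, and 4561 records of any kind lay on chromosome 11. They were chosen by position, quality, depth and genotype, so density and depth are given as descriptions without a test.

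The study sequenced leaf RNA of tomato plants grown in the field: 3 libraries of the introgression line IL2-6, 3 of IL3-2, and 1 of the control M82, labelled replicate 2. Introgression lines hold a stretch of chromosome from a wild species, Solanum pennellii for these, in a cultivated background. Per the series description, M82 variants served to check the genotypes of both lines. No treatment is named for any group. M82 has a single library and no replicate, so no spread between plants can be given, and its gene levels were not analysed here. Introgression line libraries, with 18479252 to 40146308 gene counts, entered only as a count of expressed genes per chromosome. Genotypes of the introgression lines were not analysed here.

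An SNV between inbred cultivars marks a place where their ancestry or a later mutation separates them. Cultivated tomato is low in sequence diversity, and breeding has brought in chromosome pieces of wild relatives, which differ from the cultivated sequence at many more positions and so appear as dense runs of variants. Inbred plants self-pollinate, so that a true difference from the reference is usually homozygous. Variants called from RNA can be seen only in sequence that is transcribed in the tissue, and gene-poor parts of a chromosome show few. Positions are given on the SL2.50 build named in the deposited records, and each change is written as the reference base, its position on chromosome 11 from the start of the chromosome, and the base of M82.

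The SNVs ran over nearly the whole chromosome but were unevenly spread. The first was A71867T, read 23 times, and the last was A56174928C, read 10 times, while the last record of any kind lay at 56295043. Of 57 bins of 1 Mb, 47 held at least 1 SNV and the median bin held 8. The 5 richest bins held 338 SNVs together, or 38.5%. They were 18000001 to 19000000 with 81 SNVs, 7000001 to 8000000 with 74, 8000001 to 9000000 with 70, 32000001 to 33000000 with 59, and 49000001 to 50000000 with 54. Of the 81 SNVs in the richest bin, 80 belonged to the tract numbered 8 below, where mapping quality was low. High counts thus stood at several separate places along the chromosome and not in a single block.

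**Figure D1:**
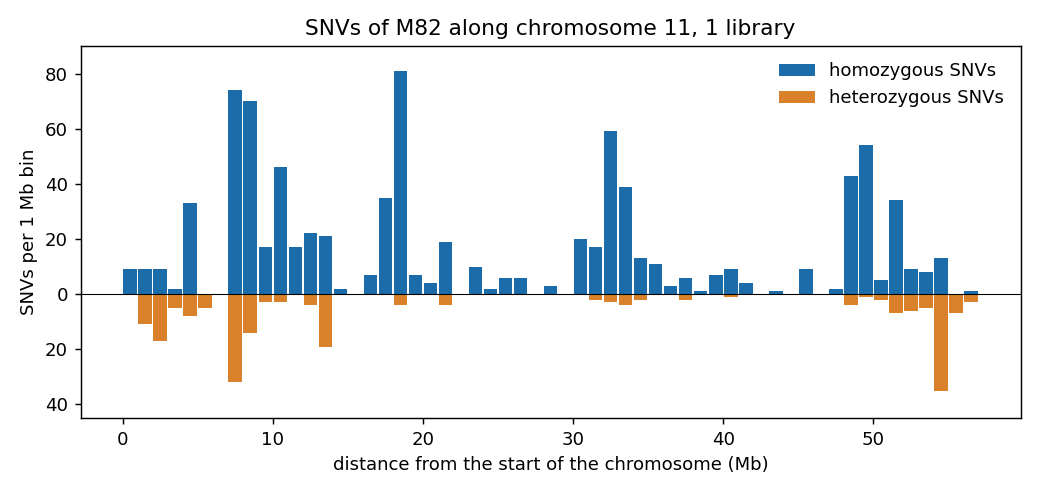
Number of homozygous SNVs (blue, upward) and heterozygous SNVs (orange, downward) of the M82 library in bins of 1 Mb along chromosome 11, by distance from the start of the chromosome. The tallest blue bar has 81 SNVs, and heterozygous SNVs reach 35 in a bin near the far end where 13 homozygous SNVs were found.

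Both ends of the chromosome differed from its middle in the balance of genotypes. From 4000001 to 50000000, 780 homozygous and 115 heterozygous SNVs passed the limits, so that 87.2% were homozygous (exact Clopper-Pearson 95% interval 84.8% to 89.3%). In the first 4 Mb the counts were 29 and 33, or 46.8% homozygous (34.0% to 59.9%). From 50000001 to the last record they were 70 and 65, or 51.9% (43.1% to 60.5%). Neither end was uniform. The bin from 54000001 to 55000000 alone held 35 of these 65 heterozygous SNVs, and the first 1 Mb held 9 homozygous SNVs and no heterozygous one. The ends were not short of records: they held 401 and 834 records of any kind, with 7.23 and 8.39 homozygous SNVs per 100 records, against 23.5 per 100 in the 3326 records between. These borders were chosen after the bins had been seen, and the genotype is part of the choice of SNVs, so no test was made.

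Dense tracts were defined as runs of at least 20 SNVs in which neighbours were at most 200000 bases apart. There were 12 of them, with 628 of the 879 SNVs (71.4%, exact 95% interval 68.3% to 74.4%) on 7938 kb, or 14.1% of the length up to the last record. The interval takes SNVs as independent, which those of a run are not, and it does not cover the choice of definition. The tracts are numbered here in order along the chromosome. How many SNVs fall in tracts depends on this definition: with at least 50 SNVs per tract 5 tracts held 50.1%, and with gaps of up to 500000 bases 8 tracts held 83.4%.

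On the near side of the chromosome, tract 1 held 33 SNVs from T4500069A to A4727831T. Its nearest neighbours lay 873 kb before and 2428 kb after it, and the latter was the longest stretch without a member. That stretch was not without data: it held 152 records, among them 58 homozygous SNV records that missed the quality or depth limit and 5 heterozygous SNVs that passed. Tract 2 began at its far side with A7156298G and ended at A8423220T, with 120 SNVs on 1267 kb the largest of chromosome 11 by number. Its start is thus a sharp edge in the passing SNVs, from none in 2428 kb to 9.47 per 100 kb. Its end was soft, since 36 homozygous SNV records below the limits filled the 208 kb before tract 3.

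Tracts 3 to 6 followed with smaller breaks. Tract 3 had 24 SNVs from A8631140G to G8963512A, and tract 4 had 60 from T9781374G to G10856579T. Tract 5 had 21 SNVs from T12811225A to G12996775A, and tract 6 had 22 from C13312846T to A14021263G. The breaks between these neighbours, or to the nearest isolated SNV, were 316 to 616 kb. With gaps of up to 500000 bases allowed, most of this stretch joined. Beyond tract 6 and 1 isolated SNV at 14406213 came a gap of 2269 kb with 22 records of any kind, 17 of them homozygous SNV records below the limits, a part of the chromosome with few records in the library.

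Tracts 7 and 8 were short. Tract 7 held 35 SNVs from T17716644A to T17969390C on 253 kb, or 13.8 per 100 kb, against 14.5 in tract 1. Tract 8 held 80 SNVs from A18595641G to A18777214G on 182 kb, which gave it 44.1 SNVs per 100 kb, the highest density of the 12. The 626 kb between them held 5 records, all homozygous SNV records below the limits. After tract 8 the next SNV, G18977803A, lay 200589 bases beyond its last member, just over the gap limit. A slightly wider limit would have joined to tract 8 this SNV and those after it up to G19103888A, which follow at distances within the limit. Tract 8 would then be longer and its density well below 44.1 per 100 kb. Its far edge, its density and its rank by density thus depend on the limit. Of 70 tracts found by the same definition on the 12 numbered chromosomes, 4 were denser than tract 8. These 4 lay on chromosomes 1, 3, 5 and 6 and are taken up again below. The median of the 58 tracts on other chromosomes was 12.4 per 100 kb.

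Between tracts 8 and 9 no run reached 20 SNVs, and the largest cluster there had 12 on 5687 bases, from T21199393G to T21205079C. Tract 9 held 20 SNVs from A30250117C to T30918577G. A gap of 2206 kb with 22 records preceded tract 9. Tract 10 was the longest of chromosome 11, with 88 SNVs on 1520 kb from A32024926G to T33544666G. After a long thin stretch, tract 11 held 92 SNVs from G48753700C to T49621817G on 868 kb. Tract 12 held 33 from G51352658A to G52003447A and was the only dense tract in the far end of the chromosome. Heterozygous SNVs were about as frequent as homozygous ones over that end as a whole, but tract 12 itself held only 7 of them. The last gap, 1867 kb from 54307591 to 56174928, held 225 records, of which 53 were homozygous SNV records below the limits and 32 were heterozygous SNVs that passed.

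**Figure D2:**
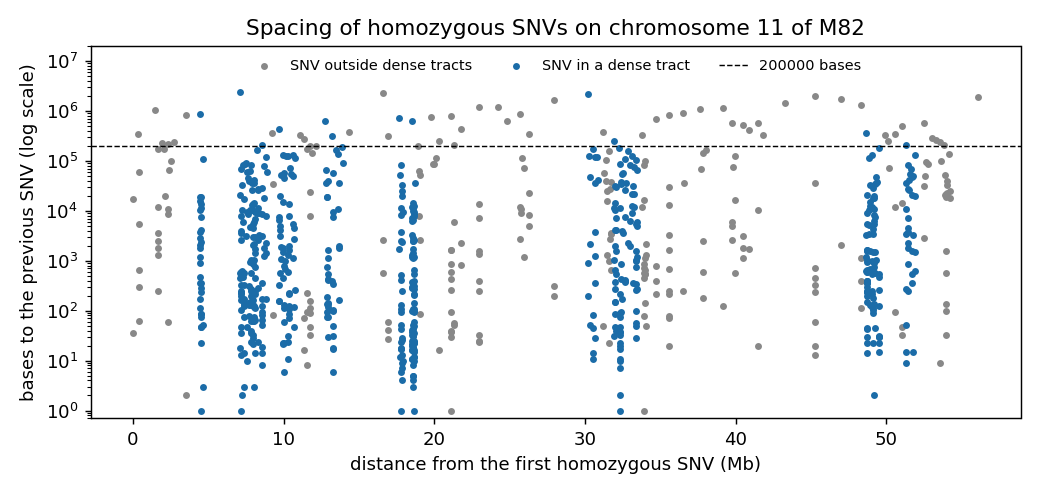
Distance in bases from each homozygous SNV of chromosome 11 to the previous one (log scale) against its distance from the first SNV in Mb, for 1 M82 library. Blue points lie in the 12 dense tracts, grey points outside them, and the dashed line marks the 200000 bases that separate tracts.

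Many homozygous SNV records that missed the limits lay in the same tracts. Of 2228 such records, with a median depth of 2 reads, 1113 lay inside the tract borders (49.96%, exact 95% interval 47.9% to 52.1%). The share was similar, 47.4%, for the heterozygous SNVs that passed, and it was not computed over all records. It may therefore reflect where records were called. The borders were placed on the homozygous SNVs that passed, so the share of those, 71.4%, is set in part by the definition. With the depth limit lowered to 5 reads, 15 tracts held 79.98% of 1239 SNVs, and with the limit raised to 20 reads 7 tracts held 54.5% of 594. The number of tracts therefore moves with depth.

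SNVs also gathered over short distances. The median distance between neighbours was 1148 bases, and 212 of 878 distances (24.1%) were at most 100 bases. Grouped at up to 2000 bases, the SNVs formed 388 clusters, of which 219 were a single SNV and 8 had 10 or more. Neighbouring SNVs are linked, and those a few bases apart are covered by the same reads, so the SNVs of a cluster are not independent observations. Without an annotation of the build, clusters were not assigned to genes.

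The 3 largest clusters all lay in dense tracts. The largest had 20 SNVs on 7519 bases from C48777202T to A48784720G in tract 11, at depths of 38 to 119 reads. The next had 16 SNVs on 2844 bases from A18737728T to C18740571G in tract 8, at 15 to 693 reads. The other cluster of 16 spanned only 631 bases, from C32422115G to T32422745C in tract 10, at 14 to 162 reads. Depth thus varied widely within a cluster, most in that of tract 8, where T18737824C had only 3 reads in the split by base and strand.

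Depth was low at most SNVs and very high at a few. The median was 31 reads, the quartiles were 16 and 65, and the range was 10 to 1716. At the lower limit, 285 SNVs (32.4%) had 10 to 19 reads, and 131 (14.9%) had 100 or more. The deepest was G54012256A outside the tracts, with 1716 reads, of which 1667 were counted for M82's base and 1 for the reference base. SNVs inside the tracts had a median of 34 reads and those outside a median of 25. Medians of single tracts ran from 17 in tract 9 to 110 in tract 8, and tract 7, with 69, came next. Without tracts 7 and 8 the median of the chromosome was 27 reads. On the other 11 numbered chromosomes the median depth was 25 to 49 reads.

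**Figure D3:**
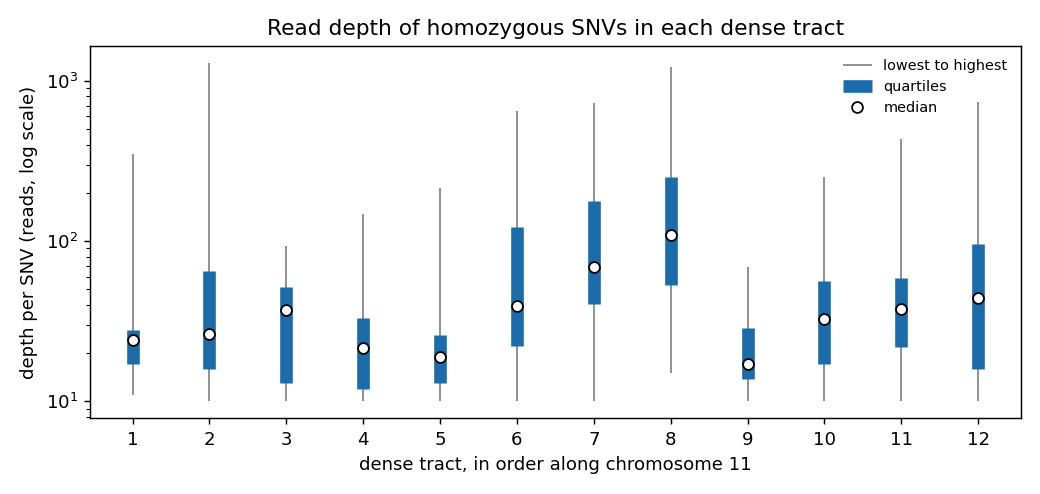
Depth in reads (log scale) of the homozygous SNVs in each of the 12 dense tracts of chromosome 11, with the median (open circle), quartiles (thick bar) and full range (thin line), for 1 M82 library. Tract 8 has the highest median, 110 reads, and tract 9 the lowest, 17 reads.

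At the limits of the definition, 37 SNVs had exactly 10 reads, with quality scores of 67 to 222, and 43 homozygous SNV records had 9 reads and a score of at least 30, with scores of 121 to 222. The lowest score among the 879 was 33, and the highest below the limit among records with at least 10 reads was 27. Quality was at 222 or above for 705 SNVs (80.2%). Among homozygous SNV records with at least 10 reads the quality limit removed few, as 35 scored under 30. Of all 2228 homozygous SNV records that missed a limit, 1110 scored at least 30 and had fewer than 10 reads, and the others scored under 30.

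The reads at these SNVs were almost all of M82's base. Over the 879 sites, 63582 of the reads split by base and strand carried the M82 base (99.3%) and 473 the reference base. No reference read was seen at 823 sites. A single site, C13312846T at the start of tract 6, held 356 of the 473, with 266 reads for the M82 base, a depth of 653, a quality of 54 and a mapping quality of 15. It was called 1/1 although more of its counted reads had the reference base, and the remaining 878 sites had 117 reference reads together. The depth field counts more reads than the split by base does: 38 SNVs (4.32%) had fewer than 10 reads in the split, the lowest 3.

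M82 reads fell on both strands. Among 557 SNVs with at least 20 reads of the M82 base, the median share on the forward strand was 50%, with quartiles of 34.6% and 62.9%, and 10 had all such reads on 1 strand. The labels speak of single-end libraries from a standard kit and of stranded paired-end libraries, and which of these M82 was is not stated.

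Bases were not used to choose the SNVs. A transition exchanges the purines A and G or the pyrimidines C and T, and any other exchange is a transversion. Although there are more possible transversions, transitions are the more common kind of mutation in most genomes. Of the 879 SNVs, 871 had a single base in both the reference and M82. The remaining 8 were 2 with N in the reference and 6 with a pair of alternative bases. Among the 871, 545 were transitions and 326 transversions, a transition share of 62.6% (exact 95% interval 59.3% to 65.8%) and a ratio of 1.67.

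On the other 11 numbered chromosomes, 3925 of 6271 homozygous SNVs were transitions, which is 62.6% as well (61.4% to 63.8%). The odds ratio was 0.999 with a 95% interval of 0.861 to 1.16 (Fisher's exact test, two-sided, with p = 1 and, adjusted for 3 tests, p = 1). Single chromosomes ran from 58.7% on chromosome 2 to 67.2% on chromosome 7. In dense tracts 393 of 623 SNVs were transitions (63.1%) and outside them 152 of 248 (61.3%), an odds ratio of 1.08 (0.787 to 1.48, Fisher's exact test, p = 0.642, adjusted p = 0.963). Among the heterozygous SNVs of chromosome 11, 119 of 213 were transitions (55.9%, 48.9% to 62.6%), against which the homozygous SNVs had an odds ratio of 1.32 (0.963 to 1.81, Fisher's exact test, p = 0.0842, adjusted p = 0.253). At a depth of at least 20 reads that last odds ratio turned to 0.979. None of the 3 differences passed the threshold. Linked sites may not be independent, which can make these p-values too small, and the tests compare sites of 1 library.

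**Figure D4:**
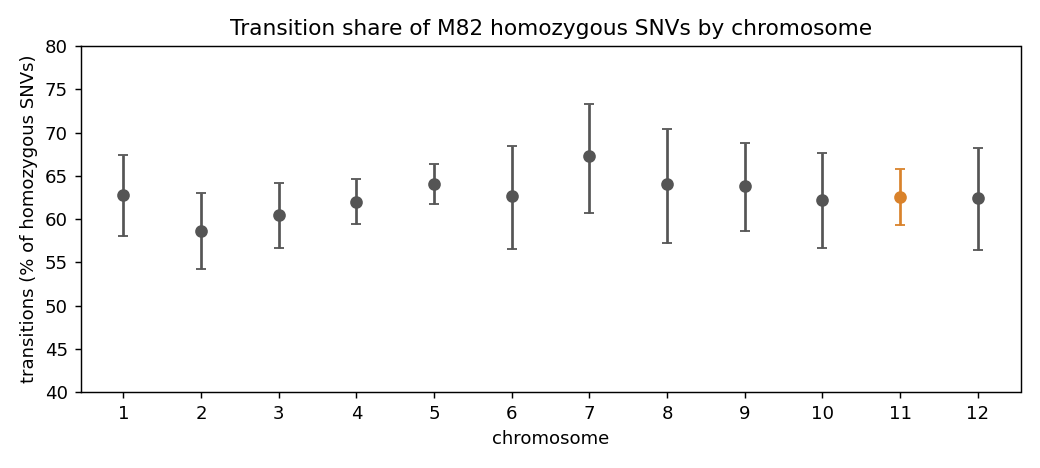
Share of transitions among homozygous SNVs on each numbered chromosome, in percent on an axis from 40 to 80, with exact 95% intervals for counting error, in 1 M82 library. Chromosome 11 (orange) is at 62.6%, and the others run from 58.7% to 67.2%.

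The direction of the base changes was most lopsided in tracts 7 and 8. G and C pair by stronger bonds than A and T, and a change from A or T in the reference to G or C in M82 is called weak-to-strong here. In tract 8, 66 of the 67 changes between these classes were weak-to-strong (98.5%, exact 95% interval 91.96% to 99.96%), and in tract 7 it was 27 of 28 (96.4%, 81.7% to 99.9%). The other 10 tracts ran from 44.4% to 77.8%. The highest of them were tract 6, with 14 of 18 (77.8%, 52.4% to 93.6%), and tract 5, with 12 of 17 (70.6%, 44.0% to 89.7%). Their intervals overlap that of tract 7, and that of tract 6 also overlaps that of tract 8. Over the whole chromosome the share was 442 of 714 (61.9%, 58.2% to 65.5%). Without tracts 7 and 8 it was 349 of 619 (56.4%, 52.4% to 60.3%), against 2713 of 5096 (53.2%, 51.9% to 54.6%) on the other numbered chromosomes. Those kept their own tracts with a high share, described below, so the sets are not alike. Single chromosomes among them ran from 47.6% on chromosome 10 to 67.3% on chromosome 6. This measure was chosen after the changes had been seen, and it was not tested.

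Mapping quality, the aligner's score for how surely a read belongs where it was placed, was low in the same tracts. Mapping quality was at most 50 in these records, and 700 of the 879 SNVs (79.6%) had 50. In tract 8 only 12 of 80 SNVs had 50, in tract 7 it was 20 of 35, and in tract 6 it was 11 of 22. Of the 83 SNVs below 40, tract 8 held 40 and tract 7 held 10, which is 50% and 28.6% of their SNVs, while the other 10 tracts had at most 18.2%. Within tracts 7 and 8 the direction was the same at every level of mapping quality. All 23 changes at 50 were weak-to-strong (exact 95% interval 85.2% to 100%), as were 28 of 30 at 40 to 49 and all 42 below 40. Over the other SNVs of the chromosome it was 295 of 542 (54.4%) at a mapping quality of 50, 36 of 48 (75%, 60.4% to 86.4%) at 40 to 49 and 18 of 29 (62.1%, 42.3% to 79.3%) below 40. The cluster of 12 SNVs between tracts 8 and 9 had 9 weak-to-strong changes of 10 and 5 SNVs with a mapping quality below 40. The cluster of 16 in tract 10 had 11 of 11 and 3 SNVs below 40, and both were singled out for this after their values were seen. The transition share of tracts 7 and 8 was 62.2% (52.5% to 71.2%), close to that of the rest, 62.6%. Tracts 7 and 8 held 4 heterozygous SNVs beside 115 homozygous ones.

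**Figure D5:**
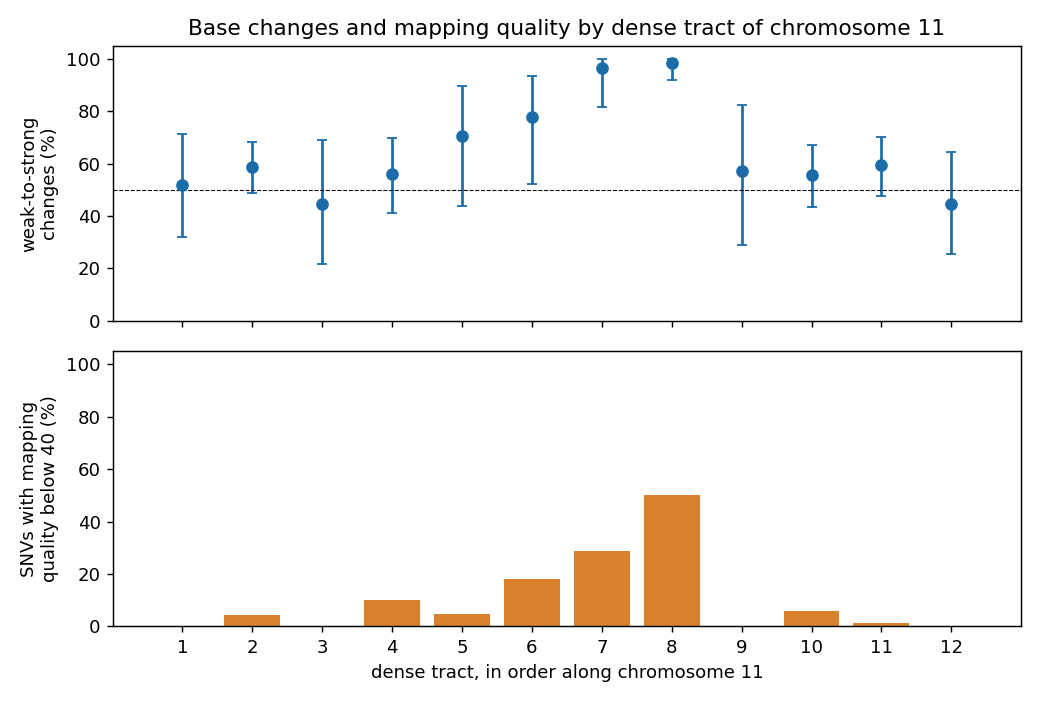
Upper panel, share of weak-to-strong base changes among changes between the weak pair (A, T) and the strong pair (G, C) in each dense tract of chromosome 11, with exact 95% intervals and a dashed line at 50%. Lower panel, percent of the SNVs of each tract with a mapping quality below 40, which is 28.6% in tract 7 and 50% in tract 8.

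Tracts of this kind were not limited to chromosome 11. Of the 58 dense tracts on other chromosomes, 4 had at least 90% weak-to-strong changes, and all 4 had 26.1% to 40.6% of their SNVs below a mapping quality of 40. They lay on chromosomes 1, 3, 5 and 6 and held 23, 42, 32 and 59 SNVs. The same 4 were the tracts denser than tract 8, and those on chromosomes 1 and 5 spanned only 1.83 and 4.4 kb. The median share over the 58 was 51.6%. Whether reads from other copies of these sequences contributed to the calls in tracts 7 and 8 was not tested.

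Heterozygous SNVs lay partly among the homozygous ones. Of 213 on chromosome 11, 123 (57.7%) were within 2000 bases of a homozygous SNV and 101 (47.4%) lay inside the tract borders. Tract 2 held 46 of them, tract 6 held 19, and tracts 3, 7 and 9 held none. Inside the tracts 86.1% of the passing SNVs were homozygous (83.4% to 88.6%) and outside 69.1% (64.1% to 73.9%), where the choice of homozygous SNVs to place the tracts favours the former.

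Among the 12 numbered chromosomes, chromosome 11 ranked 3 by number of homozygous SNVs, after chromosome 5 with 1657 and chromosome 4 with 1355. Set against genes with at least 10 counts in each of the 6 introgression line libraries, 1287 on chromosome 11, it held 68.3 homozygous SNVs per 100 genes. Chromosome 5 had 131.3, chromosome 4 had 87.2, and the median of the other 11 was 25.7. Without tracts 7 and 8 chromosome 11 had 59.4, still above the 35.3 of chromosome 3, which came next. It had 16.6 heterozygous SNVs per 100 genes, which ranked 2 of 12, after chromosome 8 with 36.1. The median over the others was 14.3, a smaller gap than for homozygous SNVs. The genes were counted in other lines than M82, so these rates are approximate, and they depend on the count required of a gene: 59.1 with at least 1 count and 83.9 with at least 50.

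The order of dense tracts was similar. With 12, chromosome 11 was second to chromosome 5, which had 20, and chromosome 4 had 10. Without tracts 7 and 8 chromosome 11 had 10, as many as chromosome 4. Its largest tract, with 120 SNVs, ranked 6, below those of chromosome 4 (459 SNVs), chromosome 2 (332 SNVs), chromosome 3 (295 SNVs), chromosome 5 (206 SNVs) and chromosome 10 (131 SNVs). So the SNVs of chromosome 11 were spread over many tracts, as on chromosome 5, where chromosome 2 had 1 tract that held 64.2% of its homozygous SNVs. The share of SNVs in tracts was not particular to chromosome 11. It was 71.4% there, 71.2% on chromosome 5, 71.4% on chromosome 9 and 77.6% on chromosome 4, and the lowest was 36.3% on chromosome 8.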

How the data were processed

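Leaf RNA of 1 M82 library entered as a deposited list of 48455 variant records, and 6 introgression line libraries entered as raw gene counts deposited by the authors, 1 table per library. Per the file headers, each record has a quality score, a depth, reads by base and strand, a mapping quality and a genotype, and the deposited chromosome names give the SL2.50 build. Among the tools in the submitters' processing notes, which give no roles, are SAMtools 1.9, TopHat2, HTSeq, Trimmomatic and CASAVA 1.8.2. The variant caller, its settings and the build behind the counts are not stated in the sources at hand.

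Members, bins, tracts (at least 20 SNVs, gaps up to 200000 bases) and clusters (gaps up to 2000 bases) were computed in Python 3.11.15 with pandas 2.3.3. Shares have exact Clopper-Pearson 95% intervals, which cover counting error only. Transition shares were compared with Fisher's exact test, two-sided, in scipy 1.17.1, with Benjamini-Hochberg adjustment over 3 tests, and odds ratio intervals are exact conditional ones. The code was tested on simulated sites. Genes counted as expressed had at least 10 counts in each introgression line library, with the chromosome read from the identifier. The line in each title gave the group.

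Named sites were the first, last and deepest SNV, the tract edges with their neighbours, SNVs next to the limits, the 3 largest clusters and the 5 richest bins. The site with most reference reads was chosen after its values were seen. The members and definitions were chosen with earlier results of these data known. Alternatives were other quality, depth, mapping quality, tract and gene count limits and 1 SNV per cluster. No sequence around the SNVs is shown, as no genome was used here.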

Additional observations from a re-analysis of the deposited data

How the results depend on the processing

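Over 10 results, 85 alternative values were computed, of which 42 were planned and the others were added after the data were seen. In 55 the result was labelled as kept. A value with an interval had to stay inside the interval of the main run. A test had to keep the side of its odds ratio and its outcome. Counts had a wider allowance: 879 SNVs became 1239 at a depth of at least 5 and 594 at a depth of at least 20. Both were labelled as kept, as was the change from 12 tracts to 8 with gaps up to 500000 bases. The share of SNVs in dense tracts, 71.4%, was 79.98% at a depth of at least 5, 54.5% at a depth of at least 20, 67.6% at a mapping quality of at least 40, 67.7% with at least 10 reads in the split by base and 67.1% without tracts 7 and 8. It was 48.6% with gaps up to 100000 bases, 83.4% with gaps up to 500000, 82.9% with at least 10 SNVs per tract and 50.1% with at least 50. The number of tracts, 12, was 7 at a depth of at least 20, 19 with at least 10 SNVs per tract and 5 with at least 50. By construction of the limit, the median depth of 31 was 18 at a depth of at least 5 and 51 at a depth of at least 20, and it was 27 without tracts 7 and 8.

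The 68.3 SNVs per 100 genes became 96.3 and 46.2 at these depths, 61.8 at a mapping quality of at least 40, 59.4 without tracts 7 and 8, 59.1 with genes of at least 1 count and 83.9 with genes of at least 50. Leaving out each introgression line library gave 67.6 to 68.2. The weak-to-strong share of 61.9% was 56.4% without tracts 7 and 8 and 55.3% with 1 SNV per cluster.

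No transition test passed its threshold in any alternative run (smallest adjusted p of Fisher's exact test 0.177), and the odds ratio of each of the 3 comparisons changed side in at least 1 alternative. Against the other chromosomes the odds ratio of 0.999 was 1.01 at a quality of at least 100, 1.03 at a depth of at least 5, 1.002 without tracts 7 and 8 and 1.14 with 1 SNV per cluster. For tracts against the rest, 1.08 became 0.992 with 1 SNV per cluster and 0.986 with at least 10 SNVs per tract. For homozygous against heterozygous, 1.32 became 0.979 at a depth of at least 20. The cause of these shifts was not tested. No paired analysis was possible because only 1 library has variant records. Depth limits what is seen: 285 of the 879 SNVs had 10 to 19 reads.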
